A study of Mus musculus with 15 samples.

Results

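Gene expression was compared between cultured mouse pro-B cells that overexpress Bcl2 and control pro-B cells without it, and neither group had been given OHT according to the sample titles. The comparison uses the 3 arrays labelled as Bcl2 overexpression in wild type cells, called Bcl2 control arrays here, and the 3 arrays labelled wild type, called control arrays, and these are 6 of the 15 arrays in the series. All of the cells came from bone marrow of mice on a mixed C57BL/6 and 129S5 background, aged 6 to 8 weeks, and had grown for 10 days with the cytokines IL-7, Flt3 ligand and SCF at 50 ng/ml each. The other pro-B arrays are labelled Bcl11a-deficient and Bcl2-rescued Bcl11a-deficient, 3 of each, both given OHT, and are called by these names here. They were used for the shared estimate of the spread and for the same Bcl2 contrast in those cells. The labels say neither how Bcl2 was overexpressed nor under which promoter, they give no empty-construct control, and they do not explain the title prefixes EAAE and Bcl2. Any other difference between the mice or cultures behind both names therefore cannot be told apart from Bcl2 itself.

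Bcl2 is a protein of the outer mitochondrial membrane that holds back the pore-forming relatives Bax and Bak, and so blocks the mitochondrial route to cell death. Pro-B cells are early precursors of the B lineage that depend on IL-7 for growth and survival, and the cytokine works in part by keeping protective BCL2 relatives high and BH3-only death proteins such as Bim (Bcl2l11) low. A block to death can let cells live on that would otherwise be lost, including cells with an active p53 response. Bone marrow cultures start from mixed cells, so genes of other blood lineages were examined alongside those of the B lineage.

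Most defining markers of pro-B cells were present on every array. Of 12 listed markers 10 were measured, and 9 of these were above background on all 6 arrays, among them Vpreb1 and Igll1, the surrogate light chains of the pre-B receptor, the transcription factor Ebf1 and the signalling adaptor Blnk. The exception was Rag2, part of the recombinase that cuts receptor genes, which was above background on 1 of 3 control arrays. Pax5 had no probe above the detection filter and was not analysed here. The summed normalised linear intensity of the 10 markers ran from 88592 to 100237 on the control arrays and from 96334 to 101913 on the Bcl2 control arrays. Vpreb1 read 13.91, 13.99 and 14.70 in normalised log2 intensity on the control arrays, against 14.01, 14.10 and 14.18 on the Bcl2 control arrays, so the groups overlapped. Igll1 overlapped as well, with a log2 fold change near 0.

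One control array stood apart. Control replicate 3 had a mean scanner signal of 187 and 11473 detected probes, against 445 to 750 and 14946 to 15839 on the other 5 arrays. It correlated at 0.918 to 0.921 with control replicates 1 and 2, which correlated at 0.986 with each other, and the Bcl2 control arrays correlated at 0.987 to 0.991 among themselves. Counts and list medians are therefore given with and without that array, and so are the genes described in most detail. The arrays lay on 2 slides. Slide 1 held control replicates 1 and 2 and Bcl2 control replicate 1, and slide 2 held control replicate 3 and Bcl2 control replicates 2 and 3. Each group came from 3 batches of culture according to the design text, and the p-values measure the spread among these arrays, which may be technical.

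The genes that mark sex in mice also split the control arrays. Xist, the RNA of the silenced X chromosome, read 10.09, 5.50 and 10.20 on the control arrays, against 5.24, 5.18 and 5.66 on the Bcl2 control arrays. Eif2s3y, a Y-linked translation factor gene, read 4.81, 8.61 and 4.96, against 8.00, 8.40 and 8.08. Control replicates 1 and 3 were thus high in Xist and below background for Eif2s3y, and control replicate 2 and all 3 Bcl2 control arrays were the reverse, while the labels used here give no sex. Xist split the Bcl11a-deficient arrays in the same way, with 10.44, 5.66 and 10.30 without Bcl2 and 5.89, 5.39 and 5.29 with it. Neither gene passed (adjusted p = 0.16 for Xist and 0.23 for Eif2s3y), and the part of this difference in the results below was not tested beyond the following fit. With control replicate 2 alone against the Bcl2 control arrays, a fit chosen after the values were seen in which the lone array is assumed to vary like the other groups, 911 genes were called. Of the 412 higher genes 255 were among them in the same direction, and 226 of the 373 lower genes. The sign was the same for all 785, but the arrays of this fit are among those that picked the genes. Such agreement was largely fixed beforehand, so the fit cannot show what part the Xist split plays. List values from that fit are given below as those with control replicate 2 alone.

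The probes for mouse Bcl2 did not read higher in the cells said to overexpress it. The brightest probe (ILMN_1249366) read 8.89, 8.79 and 7.56 on the control arrays, against 7.99, 7.95 and 6.86 on the Bcl2 control arrays. The groups overlapped, through control replicate 3. The log2 fold change of Bcl2 was -0.82 ± 0.39 (SE, n = 3 arrays per group, limma adjusted p = 0.23), and without control replicate 3 it was -1.25 (adjusted p = 0.023), lower in the Bcl2 control cells. The other 3 Bcl2 probes above the detection filter gave 0.70, 0.03 and -0.42, and none passed. The labels leave unsaid if the overexpressed Bcl2 carries the sequence that these probes read, so the label was not checked by this gene.

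Bcl11a, the zinc finger transcription factor that the wider study removes, was higher with Bcl2. Probe ILMN_2712044, the brightest of the gene, gave 9.47, 9.20 and 9.89 in control cells and 10.74, 10.92 and 10.85 with Bcl2, with no overlap. The log2 fold change of Bcl11a was 1.32 ± 0.20 (adjusted p = 0.0021), and 1.51 without control replicate 3. A second Bcl11a probe (ILMN_1257463) gave 1.28, which did not pass over all detected probes (adjusted p = 0.11), and 1.90 without control replicate 3 (adjusted p = 0.0010). On that probe control replicate 3 read 10.89, inside the range of the Bcl2 control arrays, and the other control arrays 8.91 and 9.13. The third Bcl11a probe was below background on all 6 arrays.

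Bcl2 control cells differed from control cells in 785 of 9687 genes, which is 8.1% of the genes tested. Of these, 412 were higher (4.25%) and 373 lower (3.85%), at a Benjamini-Hochberg adjusted p under 0.05 in limma, and the median size of the change was 1.07 on the log2 scale. The arrays of the groups did not overlap for 24.1% of genes, 13% higher and 11.2% lower. Without control replicate 3 the count was 1983 (20.5%), with 1102 higher (11.4%) and 881 lower (9.09%). Of the 412 genes called higher, 407 were also called without that array, and of the 373 called lower, 365. Leaving out a Bcl2 control array instead gave 403, 474 and 379 genes for replicates 1, 2 and 3. The direction split depended on the scaling of the arrays. With median scaling in place of quantile normalisation 228 genes were higher and 482 lower, and the median of all genes moved from 0.03 to -0.16. Changes of small size are therefore read against that shift, and the gene groups below were checked under it.

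**Figure D1:**
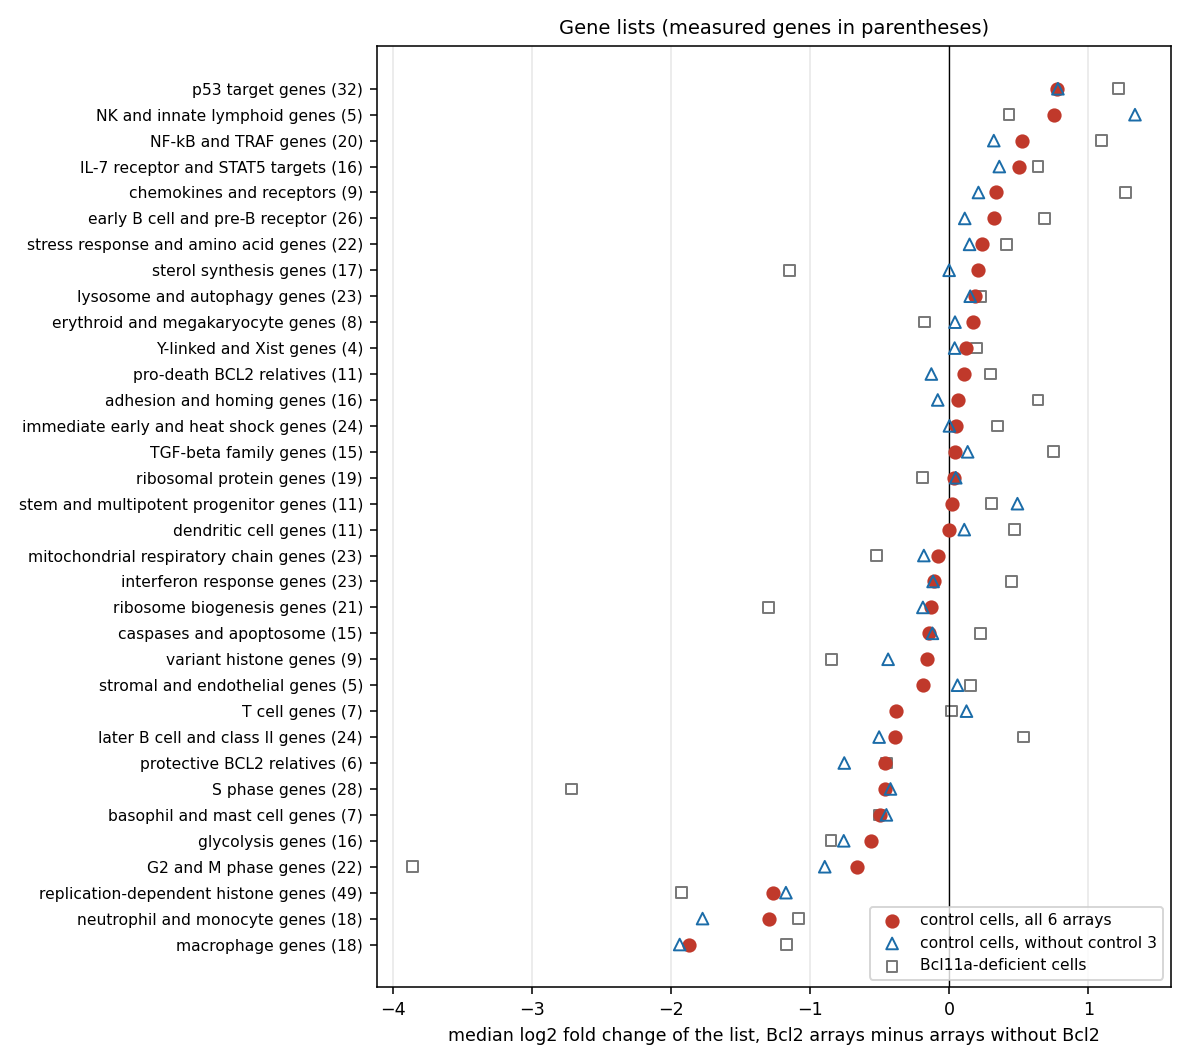
Median log2 fold change (horizontal axis, Bcl2 arrays minus arrays without Bcl2) of each gene list on the vertical axis, with the number of measured genes in parentheses. Filled circles are control cells with all 6 arrays, open triangles control cells without control replicate 3, and open squares the same contrast in Bcl11a-deficient cells. The macrophage (-1.87), neutrophil and monocyte (-1.29) and replication-dependent histone (-1.27) lists lie farthest to the left in control cells with all 6 arrays, and the p53 target genes (0.77) farthest to the right.

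Of the 12 genes with the highest rises in the Bcl2 control cells, 7 were below background on all 3 control arrays. Gdpd3, an enzyme of lysophospholipid metabolism, read 6.75, 6.74 and 4.94 on the control arrays, against 10.09, 10.41 and 11.17 on the Bcl2 control arrays, a log2 fold change of 4.41 ± 0.44 (adjusted p = 0.00015). Dnali1, a light intermediate chain of the dynein motors of cilia, read 5.01, 4.93 and 4.65 against 8.20, 8.23 and 8.26. The arrays of neither gene overlapped between the groups. Dnali1 was below background on the 3 control arrays, so its rise is a bound, at least 4.28-fold higher (adjusted p = 2.1e-07). Without the dim array Gdpd3 rose by 3.81 and Dnali1 was at least 5.30-fold higher. Others that were below background on all 3 control arrays were Smoc1, a secreted matrix protein (at least 4.35-fold higher), Kynu, an enzyme of tryptophan breakdown (at least 5.78-fold), Clic6, a chloride channel relative (at least 4.71-fold), Kif17, a kinesin motor (at least 3.73-fold), Sln, which slows the muscle calcium pump (at least 3.28-fold) and 6530402F18Rik (at least 3.13-fold). A second Kif17 probe gave 0.21 and did not pass. These calls held without each array in turn.

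Further members of the group with the highest rises were less even among the control arrays. Rimkla, an enzyme that makes the dipeptide N-acetylaspartylglutamate, read 6.68, 4.82 and 8.03 on the control arrays, against 9.66, 9.22 and 9.68 on the Bcl2 control arrays. Its log2 fold change was 3.01 ± 0.79 (adjusted p = 0.039), and the call was lost when any array other than control replicate 3 was left out. Ky, a muscle protein with a protease fold, gave 2.96 ± 0.72 (adjusted p = 0.027), a call lost without any 1 of the Bcl2 control arrays, and a second Ky probe gave 2.94. The highest rises without control replicate 3 included 3 further genes. Dmrta2, a transcription factor of the doublesex family, rose by 3.18 (adjusted p = 0.00033) and by 2.56 with all arrays (adjusted p = 0.0079). Gprc5b, an orphan receptor, rose by 3.30 (adjusted p = 0.018) but did not pass with all arrays (2.62, adjusted p = 0.077), and Gm3696 rose by 3.04 (adjusted p = 0.00027) against 2.20 with all arrays (adjusted p = 0.039), a call lost when any array other than control replicate 3 was left out.

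The largest fall among the genes tested was that of Plk1, the kinase that drives entry into and passage through mitosis. Its 1 named probe read 11.97, 12.59 and 12.59 on the control arrays, against 5.11, 5.06 and 5.24 on the Bcl2 control arrays, where it was below background throughout. The signal of this Plk1 probe was thus at least 97.3-fold lower (adjusted p = 2.1e-08), and at least 90.6-fold lower without control replicate 3, and the call held without each array. Whether the transcript fell as far as this 1 probe reads was not tested. The same probe read 11.73, 12.34 and 11.76 on the Bcl11a-deficient arrays and 4.81, 5.33 and 5.39 on the Bcl2-rescued ones, so it was high on the 6 arrays without Bcl2 and below background on the 6 with it. The other genes of mitosis described below fell by about 1 on the log2 scale or less in the control cells.

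Pnp2, Cops8 and Obi1 fell in a like way, and Obi1 was above background on 1 of the 3 Bcl2 control arrays, the others on none. Pnp2, a purine nucleoside phosphorylase, read 9.40, 9.09 and 9.87 on the control arrays, against 5.09, 5.07 and 5.07 on the Bcl2 control arrays (at least 12.8-fold lower, adjusted p = 2.1e-07). Cops8, a subunit of the COP9 signalosome, read 9.38, 9.53 and 8.38 against 4.70, 4.74 and 4.85 (at least 9.99-fold lower, adjusted p = 5.1e-06). Obi1, a ubiquitin ligase that acts at replication origins, fell by 4.33 ± 0.31 (adjusted p = 2.1e-05), while a second Obi1 probe gave -0.17 and did not pass. The falls without control replicate 3 were at least 11.1-fold for Pnp2, at least 12.8-fold for Cops8 and -4.10 on the log2 scale for Obi1. In the Bcl11a-deficient cells all 3 genes were below background with Bcl2, and were lower by at least 13.4-fold, 13.6-fold and 11.3-fold. Tomm22, part of the import channel of mitochondria, followed this pattern with an exception. It read 11.06 and 11.02 on control replicates 1 and 2 but 4.85 on control replicate 3, and 5.45, 5.58 and 5.44 on the Bcl2 control arrays. Its difference did not pass with all arrays (adjusted p = 0.20), and it was at least 38.3-fold lower without control replicate 3 (adjusted p = 0.0059), while a second Tomm22 probe gave -0.29. Pnp2 has close relatives in the genome, so its probe is uncertain as to which copy it reads.

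Genes of neutrophils and monocytes were lower in the Bcl2 control cells. Of 18 measured genes, 8 were lower (44.4%, beside 3.85% of all genes) and 0 higher, with a median of -1.29 beside 0.03 over all genes, or -1.13 with genes below background at their bound. Without control replicate 3, 11 were lower (median -1.77, beside 9.09% of all genes lower), and with control replicate 2 alone 8 (median -1.48). In such bulk samples fewer cells of a type and less RNA per cell cannot be told apart. Of 30 listed genes 18 were measured, since a probe had to be above background on 3 of the 12 pro-B arrays. A gene seen only on arrays without Bcl2 could enter the list that way and could hardly read as higher. The share of lower genes and the 0 higher may thus be partly set by the filter. The lysozyme gene Lyz2 read 11.94, 10.79 and 10.11 on the control arrays, against 4.77, 5.40 and 4.95 on the Bcl2 control arrays. Mpo, the myeloperoxidase of neutrophil granules, read 9.78, 9.48 and 10.64 against 4.90, 4.99 and 4.78. S100a8, a calcium-binding protein abundant in neutrophils, read 9.08, 8.20 and 9.77 against 4.63, 5.20 and 4.79. All 3 genes were above background on each control array and on none of the Bcl2 control arrays, so their falls are bounds, at least 36-fold for Lyz2, 18.2-fold for Mpo and 9.44-fold for S100a8, with adjusted p of 2.2e-05, 2.2e-06 and 0.00013. The bounds without the dim array were 48.1-fold, 14.4-fold and 7.27-fold.

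Other granule and monocyte genes fell with them. Lyz1, a near copy of Lyz2 whose probe may read both transcripts, fell by 5.97 ± 0.40 (adjusted p = 1.1e-05). The granule protease Ctsg was at least 2.80-fold lower, Elane, neutrophil elastase, fell by 1.34 ± 0.25, and Cd14, a receptor for bacterial lipopolysaccharide, was at least 2.32-fold lower. Csf1r, the receptor for the growth factor of macrophages, fell by 1.17 ± 0.31 (adjusted p = 0.040), a call lost without 5 of the 6 arrays, control replicate 3 among them (-0.88, adjusted p = 0.050). Fcer1g, the signalling chain of Fc receptors in myeloid cells, did not pass with all arrays (adjusted p = 0.17). It read 10.67, 8.74 and 5.33 on the control arrays, so control replicate 3 was near the 4.95, 4.75 and 4.85 of the Bcl2 control arrays, and without it the gene was at least 15.2-fold lower (adjusted p = 0.022).

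Macrophage genes, a list added after the values were seen, were lower too, 14 of 18 measured (77.8%, beside 3.85% of all genes) and 0 higher, with a median of -1.87, or -1.43 with genes below background at their bound. There were again 14 without control replicate 3 (median -1.94, beside 9.09% of all genes lower), and 13 with control replicate 2 alone (median -1.46). The same limit of the filter holds for this list, of whose 30 listed genes 18 were measured. Gpnmb, a membrane glycoprotein of macrophages, read 11.99, 10.85 and 11.15 on the control arrays, against 5.04, 6.46 and 4.90 on the Bcl2 control arrays. Gpnmb thus fell by 5.87 ± 0.72 (adjusted p = 0.00064), while dimmer Gpnmb probes gave -1.55 and -0.45 and did not pass. Lgals3, the sugar-binding galectin 3, fell by 4.39 ± 0.41. Anxa2, a membrane-binding annexin that is also found in macrophages, fell by 3.65 ± 0.40. Without the dim array these log2 fold changes were -5.96 for Gpnmb, -4.25 for Lgals3 and -3.36 for Anxa2. Lpl, lipoprotein lipase, was at least 12.2-fold lower, the iron exporter Slc40a1 at least 8.52-fold and the complement component C1qb at least 5.78-fold. C1qb read 9.84, 8.86 and 6.22 on the control arrays, the last on control replicate 3, and its call was lost without Bcl2 control replicate 1. The receptors Axl and Mrc1 fell by 2.18 ± 0.36 and 1.55 ± 0.28, and Trem2 was at least 2.35-fold lower.

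Both myeloid lists had medians below 0 within each slide, which the same 6 arrays had largely fixed beforehand. The Bcl2 control arrays lay below all control arrays for 9 of 18 neutrophil and monocyte genes and 14 of 18 macrophage genes, beside 11.2% of all genes. The only control array on slide 2 is the dim control replicate 3. The median of the neutrophil and monocyte list was -2.15 within slide 1, -0.91 within slide 2 and -1.16 with slide as a block, and that of the macrophage list -2.13, -1.68 and -1.79. Summed over its genes, the neutrophil and monocyte list ran from 11481 to 20930 in normalised linear intensity on the control arrays and from 1589 to 1880 on the Bcl2 control arrays. For the macrophage list the sums were 5047 to 10316 and 745 to 934. Of 7 listed myeloid markers that define the lineage 5 were measured under the same filter, and Itgam and S100a9 were not. The measured Lyz2, Elane, Mpo, Csf1r and S100a8 were all lower in the Bcl2 control cells.

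**Figure D2:**
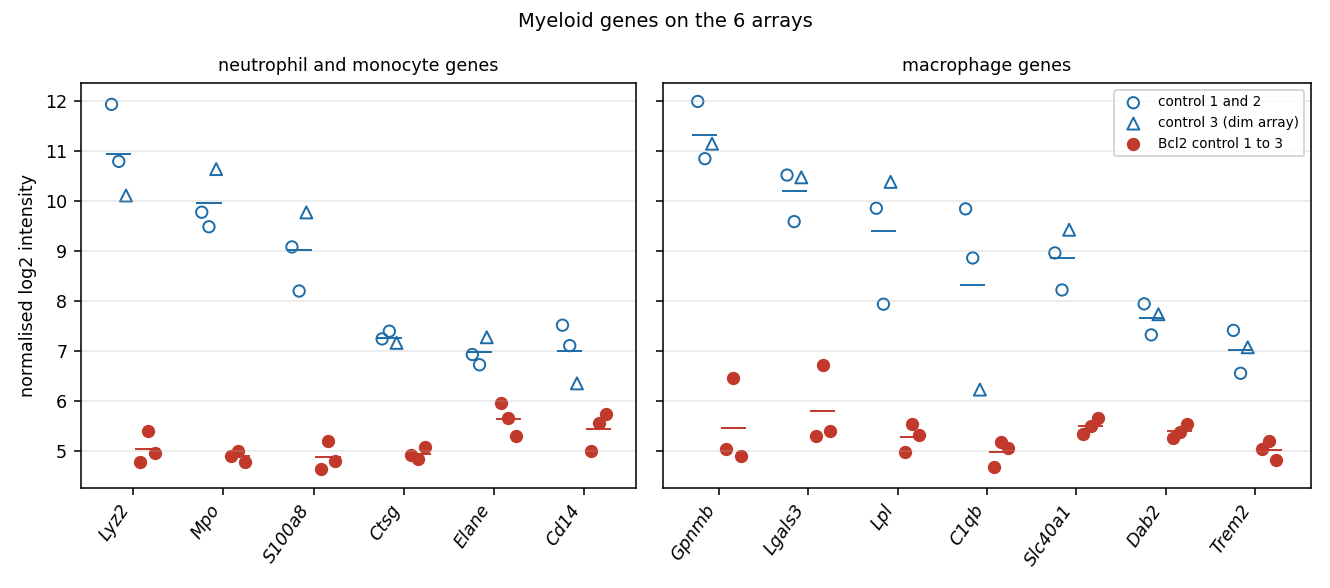
Normalised log2 intensity (vertical axis) of neutrophil, monocyte and macrophage genes on each array. Open circles are control replicates 1 and 2, open triangles control replicate 3, filled circles the Bcl2 control replicates, and short lines the group means. Lyz2, Mpo, S100a8 and Lpl sit between 7.93 and 11.94 on the control arrays and at or under 5.53 on the Bcl2 control arrays.

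Class II genes of antigen presentation, which B cells, macrophages and dendritic cells express, were lower with Bcl2. In the list of later B cell and class II genes 8 of 24 measured genes were lower (33.3%, beside 3.85% of all genes) and 2 higher, with a median of -0.39, and with control replicate 2 alone 9 were lower and 0 higher (median -0.87). H2-Ab1, the beta chain of the I-A molecule, read 11.83, 12.48 and 10.70 on the control arrays, against 7.96, 9.37 and 8.03 on the Bcl2 control arrays. H2-Eb1, the beta chain of I-E, read 10.98, 11.57 and 10.06 against 7.08, 8.57 and 7.28. For both genes the groups were apart, control replicate 3 was the lowest control array and Bcl2 control replicate 2 the highest of its group. The log2 fold change of H2-Ab1 was -3.22 ± 0.57 (adjusted p = 0.0055), with -3.24 and -3.10 from 2 further probes, and that of H2-Eb1 was -3.22 ± 0.49 (adjusted p = 0.0022). They were -3.71 and -3.63 without control replicate 3.

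Further members of the class II pathway pointed the same way with less even support. Ciita, the master activator of class II transcription, fell by 2.24 ± 0.49 (adjusted p = 0.016), and H2-DMb1, a chain of the peptide-loading molecule DM, by 1.78 ± 0.24 (adjusted p = 0.0012). H2-Aa, the alpha chain of I-A, was at least 1.76-fold lower, and H2-DMb2 (-1.48), the costimulatory Cd86 (-0.80) and Ms4a1 (-0.93), the B cell antigen CD20, passed at adjusted p of 0.024 to 0.049. The calls of Ciita, H2-Aa, H2-DMb2, Cd86 and Ms4a1 were each lost without 3 or more single arrays. With slide as a block the H2-DMb2 call was lost too, and with replicate number as a block that of Ms4a1. The number of lower genes in the list was 4 without control replicate 1, 3 without control replicate 2 and 3, 5 and 3 without Bcl2 control replicates 1, 2 and 3. Without control replicate 3 it was 10 (beside 9.09% of all genes lower), with H2-DMa (-1.82, adjusted p = 0.0011) and the class II chaperone Cd74 (-1.52, adjusted p = 0.0082) now passing. Cd74 read 13.04, 13.97 and 11.84 on the control arrays, against 11.94, 12.28 and 11.74 on the Bcl2 control arrays, so control replicate 3 lay within the Bcl2 range. The medians of the list were -0.49 within slide 1, -0.20 within slide 2 and -0.46 with slide as a block. The macrophage genes named above moved on the same arrays, and their part in the class II result was not tested. Those that rose were Cxcr5, a follicular homing receptor (1.06 ± 0.29, adjusted p = 0.045), and Il2ra, the CD25 chain that appears on pre-B cells (1.06 ± 0.23, adjusted p = 0.016), and the Cxcr5 call was lost without control replicate 3 (0.81, adjusted p = 0.057). The Cxcr5 call was also lost without control replicate 1 or any 1 of the Bcl2 control arrays, and the Il2ra call without Bcl2 control replicate 2 or 3. Neither passed with median scaling.

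The promoters of H2-Eb1 and H2-Aa are shown because both genes fell and both hold the Y box, CTGATTGG, of the conserved class II promoter, which is in capitals. Each run is the 250 bases before the gene's start in the RefSeq table, build GRCm38.p6, read 5′ to 3′ on the gene's strand. The Y box was searched on both strands, it overlaps the shorter motif ATTGG, and it occurred in 3.83% of all 32851 windows of this length. Of the 6 measured class II genes of this group, 5 had a window and 2 of these held the Y box.
H2-Eb1, chr17:34305617-34305866, plus strand: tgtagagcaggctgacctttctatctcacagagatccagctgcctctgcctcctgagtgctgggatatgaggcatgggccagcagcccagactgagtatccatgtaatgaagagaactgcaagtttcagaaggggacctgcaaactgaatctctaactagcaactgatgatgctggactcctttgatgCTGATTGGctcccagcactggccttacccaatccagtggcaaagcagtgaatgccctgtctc
H2-Aa, chr17:34287824-34288073, minus strand: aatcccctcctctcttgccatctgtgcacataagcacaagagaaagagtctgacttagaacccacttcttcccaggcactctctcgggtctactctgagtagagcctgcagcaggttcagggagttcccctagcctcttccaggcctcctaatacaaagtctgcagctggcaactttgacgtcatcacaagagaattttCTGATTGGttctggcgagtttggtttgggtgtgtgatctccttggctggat

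Early B cell genes changed in few places. Of 26 measured genes 3 were higher and 1 lower, 11.5% and 3.85% of the list beside 4.25% and 3.85% of all genes. The median was 0.32 (0.11 without control replicate 3, 0.12 within slide 1, 0.72 within slide 2, 0.43 with slide as a block, 0.10 with median scaling). Il7r, the receptor chain through which IL-7 acts, read 10.27, 10.20 and 10.57 on the control arrays, against 11.45, 11.62 and 11.47 on the Bcl2 control arrays. Il7r rose by 1.17 ± 0.17 (adjusted p = 0.0017), its other 3 measured probes gave 1.51, 1.00 and 0.96, and without control replicate 3 the rise was 1.28. Irf4, a transcription factor of the pre-B and plasma cell stages, read 10.35, 10.19 and 9.78 against 11.43, 11.27 and 11.38, a rise of 1.25 ± 0.19 (adjusted p = 0.0024), or 1.09 without the dim array. Kit, the receptor for SCF, rose by 1.22 ± 0.25 (adjusted p = 0.012), a call lost without Bcl2 control replicate 1. Dntt, the polymerase that adds random bases at receptor gene joints, fell by 1.12 ± 0.28 (adjusted p = 0.029), and that call was lost when any array but control replicate 3 or Bcl2 control replicate 2 was left out. Rag1, the partner of Rag2 in the recombinase, did not pass with all arrays (0.78, adjusted p = 0.22) and passed as higher by 1.23 without control replicate 3 (adjusted p = 0.010).

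**Figure D3:**
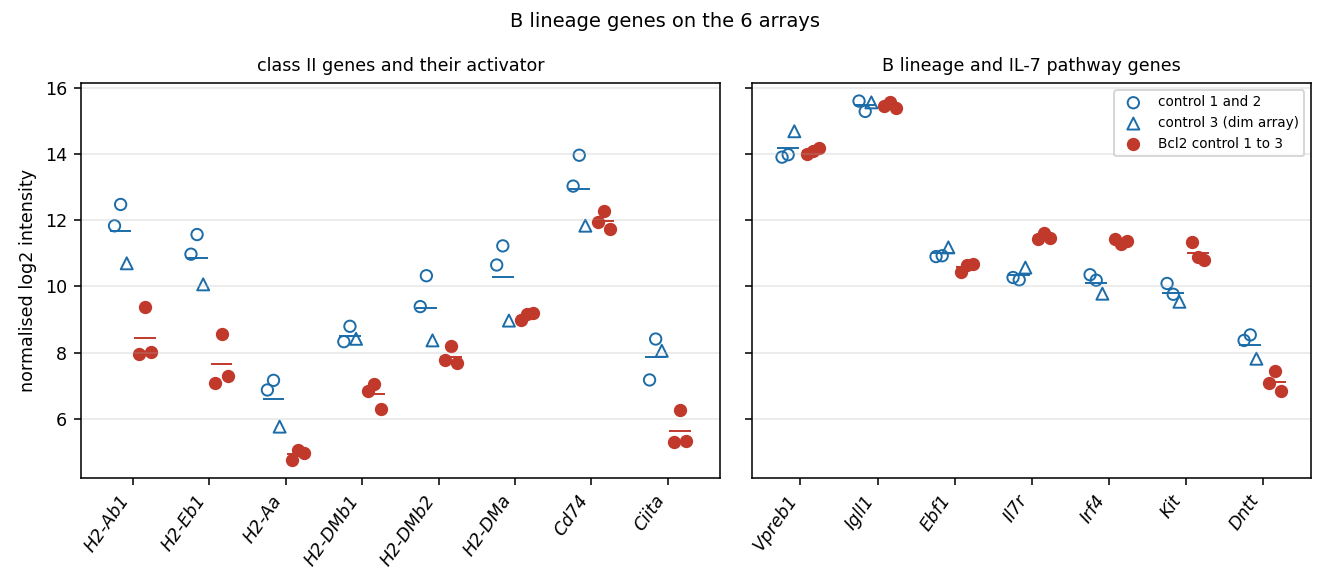
Normalised log2 intensity (vertical axis) of class II genes and of B lineage and IL-7 pathway genes on each array, with symbols as in the myeloid plot and short lines for the group means. H2-Ab1 lies between 10.70 and 12.48 on the control arrays and between 7.96 and 9.37 on the Bcl2 control arrays, while Igll1 and Vpreb1 overlap between the groups.

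Some targets of IL-7 signalling were higher. In the list of IL-7 receptor and STAT5 targets 5 of 16 measured genes were higher and 1 lower, 31.2% and 6.25% beside 4.25% and 3.85% of all genes (median 0.50, 0.21 with control replicate 2 alone, 0.36 without control replicate 3, 0.33 within slide 1, 0.35 within slide 2, 0.46 with slide as a block). Pim2, a survival kinase induced by cytokines, read 5.03, 5.05 and 4.84 on the control arrays, all below background, and 7.46, 7.35 and 7.91 on the Bcl2 control arrays. It was at least 2.71-fold higher (adjusted p = 2.2e-05), or 3.35-fold without the dim array, and a second Pim2 probe rose by 1.61. Socs2, a feedback inhibitor of cytokine receptors, passed as higher (0.51), as did Gfi1, a transcriptional repressor (0.74). Socs1, another such inhibitor, passed as higher as well, but it was below background on the control arrays and no fold is given for it. Ccnd3, a cyclin of the G1 phase that IL-7 sustains in pre-B cells, fell by 0.59 ± 0.16 (adjusted p = 0.046). The calls of Socs1, Socs2, Gfi1 and Ccnd3 were each lost without 2 or more single arrays, and the number of higher genes in the list was 3, 3, 2, 2 and 3 without control replicates 1 and 2 and Bcl2 control replicates 1, 2 and 3. With median scaling 3 genes of the list were higher and 1 lower (median 0.26), beside 228 and 482 of all 9687 genes, and the calls of Socs1 and Socs2 were lost. Socs3 and Cish, feedback inhibitors too, gave -0.05 and -0.31 and did not pass.

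Genes that p53 is known to induce were higher in the Bcl2 control cells. Of 32 measured targets 12 were higher (37.5%, beside 4.25% of all genes) and 0 lower, with a median of 0.77, and 18 were higher and 2 lower without control replicate 3 (median 0.78, beside 11.4% of all genes higher). With genes below background at their bound the median was 0.67, and with control replicate 2 alone 11 were higher and 0 lower (median 0.66). The median was 0.62 within slide 1, 0.43 within slide 2, 0.72 with slide as a block and 0.58 with median scaling. Under that scaling 10 targets were higher and 0 lower, beside 228 and 482 of all 9687 genes. The number of higher genes was 8 without Bcl2 control replicate 1 or 3 and 10 without Bcl2 control replicate 2, control replicate 1 or control replicate 2. Zmat3, an RNA-binding protein, read 8.49, 8.86 and 8.46 on the control arrays, against 11.26, 11.56 and 11.25 on the Bcl2 control arrays, so it rose by 2.75 ± 0.21 (adjusted p = 2.5e-05). Cdkn1a, the cell cycle inhibitor p21, read 11.82, 11.55 and 10.76 against 12.76, 12.57 and 12.92, a rise of 1.38 ± 0.27 (adjusted p = 0.010), and its other probes gave 1.21 and 1.27. For both genes the groups were apart, and for Cdkn1a the dim array was the lowest. Without it Zmat3 rose by 2.68 and Cdkn1a by 1.07.

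Death genes were among the p53 targets that rose. Bbc3, the BH3-only protein Puma, read 10.05, 10.29 and 11.21 on the control arrays, against 12.15, 12.10 and 12.80 on the Bcl2 control arrays. Bbc3 rose by 1.83 ± 0.33 (adjusted p = 0.0058), while dimmer Bbc3 probes gave 0.74 and 0.11 and did not pass. The rise of Bbc3 without control replicate 3 was 2.18. Fas, a death receptor, read 5.68, 6.33 and 5.35 against 7.84, 7.85 and 7.84, a rise of 2.06 ± 0.28 (adjusted p = 0.0013), with 0.18 and -0.30 from the other measured Fas probes. Phlda3, an inhibitor of the kinase Akt, rose by 3.10 ± 0.58 (adjusted p = 0.0078), while a second Phlda3 probe gave 0.31. It read 7.79 and 8.12 on control replicates 1 and 2 and 5.46 on control replicate 3, and without that array the rise was 2.27. Psrc1, a spindle protein, rose by 1.71 ± 0.26, Ccng1, cyclin G1, by 1.21 ± 0.17 and Trp53inp1, a p53-induced nuclear protein, by 1.12 ± 0.17, and these calls held without each array in turn. Mdm2, the ubiquitin ligase that turns p53 over, rose by 0.79 ± 0.20 (adjusted p = 0.036), a call lost without any 1 array but control replicate 3, where it was 1.02 (adjusted p = 0.0014). Ddit4 and Sesn2, inhibitors of mTORC1, passed at 0.97 and 1.53, both calls lost without Bcl2 control replicate 1 or 3. Cd80 passed as higher with all 6 arrays below background, so no fold is given, and the call was lost when any array other than control replicate 3 was left out.

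Few genes of the BCL2 family were called. Of 11 measured pro-death relatives 2 were higher and 1 lower, 18.2% and 9.09% beside 4.25% and 3.85% of all genes (median 0.10, -0.13 without control replicate 3, -0.41 within slide 1 and 0.60 within slide 2). Beside Bbc3 it was Bcl2l11, the BH3-only protein Bim, that rose. It read 10.89, 11.02 and 10.17 on the control arrays, against 11.84, 11.69 and 11.70 on the Bcl2 control arrays, a rise of 1.05 ± 0.21 (adjusted p = 0.012), and the call was lost without Bcl2 control replicate 1. Bok, a pore-forming relative of Bax, read 9.26, 9.15 and 9.53 against 7.90, 8.47 and 8.09, a fall of 1.16 ± 0.20 (adjusted p = 0.0055). The groups were apart for both genes, and the Bok call held without each array in turn. Without the dim array Bcl2l11 rose by 0.79 and Bok fell by 1.05. Bmf and Pmaip1, further BH3-only genes, gave 1.48 and 0.54 and did not pass. Of 6 measured protective relatives 0 passed in limma with all arrays. At an unadjusted p under 0.05 there were 2, beside 2301 of all 9687 genes. Mcl1 and Bcl2l1, which protect beside Bcl2, gave 0.16 and -0.11. Without control replicate 3, Bcl2, Bcl2a1b (-1.27) and Bcl2a1d (at least 1.31-fold) passed as lower and Bcl2l2 (0.71) as higher, and Bcl2a1b and Bcl2a1d are near-identical copies.

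**Figure D4:**
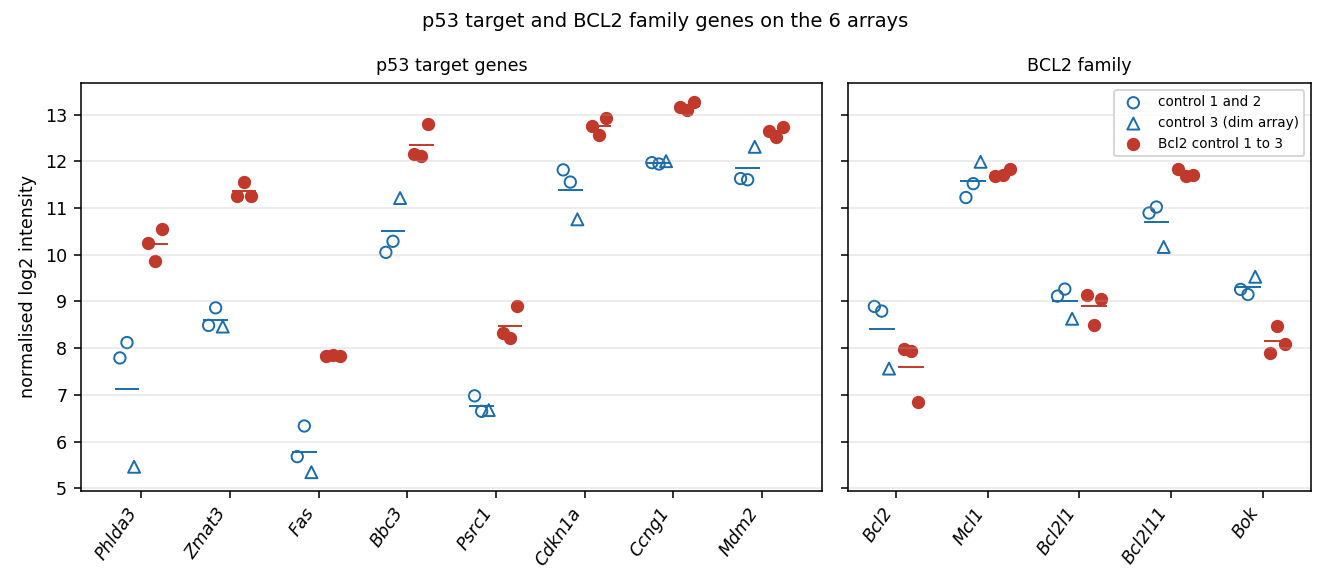
Normalised log2 intensity (vertical axis) of p53 target genes and of BCL2 family genes on each array, with symbols as in the myeloid plot and short lines for the group means. Zmat3 lies between 8.46 and 8.86 on the control arrays and between 11.25 and 11.56 on the Bcl2 control arrays, while Bcl2 overlaps through control replicate 3.

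Genes of cell division were lower by small amounts. Of 22 measured genes of the G2 and M phases 10 were lower and 0 higher (45.5%, beside 3.85% of all genes), with a median of -0.67, and 17 were lower without control replicate 3 (median -0.90, beside 9.09% of all genes lower) and 11 with control replicate 2 alone (median -0.86). Of 28 measured S phase genes 5 were lower (17.9%) and 0 higher (median -0.46), and 12 were lower and 1 higher without that array (median -0.42). Kif23, a kinesin of the dividing cell's midzone, read 11.39, 11.51 and 11.09 on the control arrays, against 10.56, 10.61 and 10.34 on the Bcl2 control arrays, a fall of 0.83 ± 0.17 (adjusted p = 0.011). Aurka, a spindle kinase, read 11.73, 11.75 and 11.96 against 10.92, 11.26 and 10.91, a fall of 0.78 ± 0.15 (adjusted p = 0.010). The groups were apart for both genes, and the Kif23 call was lost without Bcl2 control replicate 3 and the Aurka call without Bcl2 control replicate 1. Rrm2, a subunit of ribonucleotide reductase, fell by 1.11 ± 0.20 (adjusted p = 0.0069) and Ccne2, cyclin E2, by 0.84 ± 0.16 (adjusted p = 0.0097), and both calls held without each array in turn. Without the dim array the log2 fold changes were -0.94 for Kif23, -0.71 for Aurka, -0.89 for Rrm2 and -0.83 for Ccne2.

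The counts of division genes depended on single arrays. The number of lower G2 and M phase genes was 5 and 7 without control replicates 1 and 2, and 4, 4 and 2 without Bcl2 control replicates 1, 2 and 3. For the S phase list it was 4 and 4, and 3, 3 and 2. The medians were -0.78 within slide 1, -0.60 within slide 2 and -0.64 with slide as a block for the G2 and M phase list, and -0.41, -0.44 and -0.38 for the S phase list. Beyond the lists, Kif4, a motor of mitotic chromosomes, fell by 1.01 ± 0.15, and Pbk, a kinase of dividing cells, by 0.83 ± 0.18, a call lost without control replicate 1 or Bcl2 control replicate 3.

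Histone genes that are made during DNA replication fell together. Of 49 measured replication-dependent histone genes 37 were lower and 0 higher (75.5%, beside 3.85% of all genes), with a median of -1.27, and 37 were lower without control replicate 3 as well (median -1.18, beside 9.09% of all genes lower) and 27 with control replicate 2 alone (median -1.05). This list was added after the values were seen. The median was -1.30 within slide 1, -1.31 within slide 2, -1.28 with slide as a block and -1.30 with median scaling, and 27 to 37 genes were lower when 1 array was left out. Of 9 measured variant histone genes, which are made outside S phase as well, 2 were lower (median -0.16, or -0.44 and 5 lower without control replicate 3). These were H3f3b (-0.89 ± 0.21), a gene for a replacement H3, and Cenpa (-0.82 ± 0.20), the centromeric H3 that is also on the mitosis list, and both calls were lost without any 1 of the Bcl2 control arrays. Replication-dependent genes of a class are near-identical copies, a probe may read several of them, and the values of single copies are uncertain.

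H2bc12, a gene for H2B, read 10.95, 10.65 and 11.20 on the control arrays, against 8.77, 9.03 and 9.24 on the Bcl2 control arrays, a fall of 1.92 ± 0.23 (adjusted p = 0.00053). H4c12, a gene for H4, read 8.74, 8.58 and 9.26 against 6.85, 6.77 and 7.01, a fall of 1.99 ± 0.21 (adjusted p = 0.00026). H3c10, a gene for H3, read 12.15, 11.93 and 12.03 against 10.60, 10.74 and 10.92, a fall of 1.28 ± 0.17 (adjusted p = 0.00094). The groups did not overlap for any of the 3 genes, and without the dim array the log2 fold changes were -1.78 for H2bc12, -1.79 for H4c12 and -1.29 for H3c10. By class, 10 of 11 measured H2B genes were lower (median -1.50), 8 of 9 H3 genes (-1.28), 11 of 12 H4 genes (-1.30) and 2 of 3 H1 genes (-1.26). H2A genes stood apart with 6 of 14 lower and a median of -0.17. Of the 8 H2A genes that did not pass, 5 were among the brightest on the array, with means of 15.7 to 15.9 in log2 intensity where the brightest gene of all was at 15.9, and their log2 fold changes lay between -0.11 and 0.05. In the Bcl11a-deficient cells the same 5 genes gave -1.95 to -1.49, and the difference between the cell types passed for each of the 5. The saturation of these probes was not tested.

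**Figure D5:**
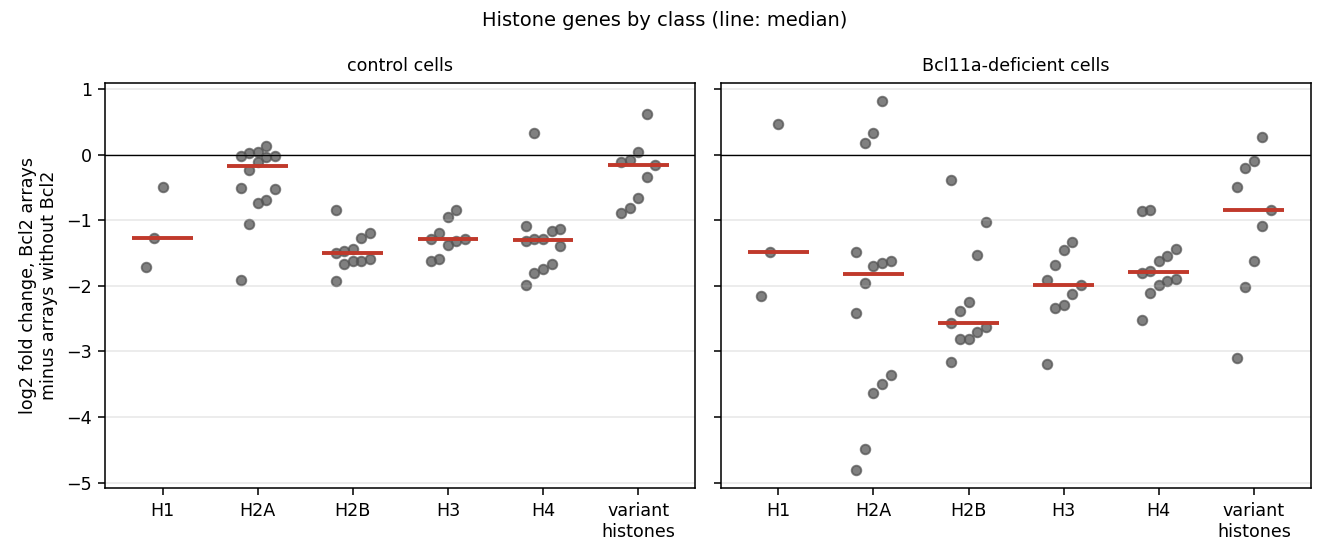
Log2 fold change (vertical axis, Bcl2 arrays minus arrays without Bcl2) of each measured histone gene, by histone class, in control cells on the left and in Bcl11a-deficient cells on the right. Each point is a gene and each line the median of a class. In control cells the H2B, H3 and H4 genes cluster between -1.99 and -0.85, apart from 1 H4 gene at 0.34, while H2A genes spread from -1.91 to 0.14.

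Promoters of H2bc12, H3c10 and H4c12 are shown because all 3 genes fell, though H3c10 fell less. The capitals mark CCAAT, a box common in histone promoters, and in H2bc12 also ATTTGCAT, the octamer known from H2B promoters that the factor Oct-1 binds. Both strands were searched, so the reverse complement of CCAAT appears as ATTGG, and the motifs do not share letters. Each run is the 250 bases before the gene's start in the RefSeq table, build GRCm38.p6, read 5′ to 3′ on the gene's strand.
H2bc12, chr13:22035571-22035820, plus strand: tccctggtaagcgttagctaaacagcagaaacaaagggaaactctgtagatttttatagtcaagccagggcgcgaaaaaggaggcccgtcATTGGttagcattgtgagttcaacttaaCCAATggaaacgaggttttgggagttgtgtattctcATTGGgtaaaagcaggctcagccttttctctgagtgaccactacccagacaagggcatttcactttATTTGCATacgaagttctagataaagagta
H3c10, chr13:21717378-21717627, plus strand: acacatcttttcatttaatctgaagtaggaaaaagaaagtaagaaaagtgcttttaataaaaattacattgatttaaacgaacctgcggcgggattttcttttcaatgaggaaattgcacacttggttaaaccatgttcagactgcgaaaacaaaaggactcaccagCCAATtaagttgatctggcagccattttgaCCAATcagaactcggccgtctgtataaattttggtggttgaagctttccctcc
H4c12, chr13:21750554-21750803, minus strand: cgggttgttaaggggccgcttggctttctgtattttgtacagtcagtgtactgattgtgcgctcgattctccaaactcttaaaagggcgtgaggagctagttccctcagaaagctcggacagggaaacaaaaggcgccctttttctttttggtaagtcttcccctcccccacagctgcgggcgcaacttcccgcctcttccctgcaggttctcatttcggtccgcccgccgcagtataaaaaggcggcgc
CCAAT was in 33.8% of all 32851 windows and the octamer in 1.6%. Among measured histone genes with a window, CCAAT was in 9 of 9 for H2B, 14 of 14 for H2A, 6 of 7 for H3, 3 of 3 for H1 and 3 of 11 for H4, and the octamer was in 5 of 9 for H2B, 4 of 14 for H2A and in none for H1, H3 or H4. The window of H4c12 held neither string, and its fall was as large as that of H2bc12. A string match describes these letters only.

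Genes of glycolysis were lower as well. Of 16 measured genes 5 were lower (31.2%, beside 3.85% of all genes) and 0 higher, and the log2 fold change of each of the 16 was below 0 (median -0.56). The count was 9 (median -0.76, beside 9.09% of all genes lower) without control replicate 3, and 9 with control replicate 2 alone (median -0.99). Tpi1, triosephosphate isomerase, read 14.14, 14.57 and 14.57 on the control arrays, against 13.16, 13.28 and 13.20 on the Bcl2 control arrays, a fall of 1.21 ± 0.17 (adjusted p = 0.0017). Pfkl, the liver type of phosphofructokinase, fell by 1.10 ± 0.18 (adjusted p = 0.0030), and both calls held without each array. Pgk1 (-1.37), Aldoa (-1.33) and Ldha (-0.79) passed at adjusted p of 0.0182 to 0.0215, and their calls were lost without Bcl2 control replicate 3 and 1 or more other arrays. The number of lower genes was 3, 4 and 2 without Bcl2 control replicates 1, 2 and 3. With the 6 arrays fitted alone it was 1, beside 90 of all 9687 genes. Without the dim array Tpi1 fell by 1.14, Pfkl by 0.93, Pgk1 by 1.71, Aldoa by 1.65 and Ldha by 0.80. The medians were -0.65 within slide 1, -0.60 within slide 2 and -0.59 with slide as a block.

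Single genes of several other lists changed. Fos, the immediate early transcription factor, read 7.55, 8.63 and 9.36 on the control arrays, against 5.13, 5.70 and 5.07 on the Bcl2 control arrays, where it was below background (at least 6.66-fold lower, adjusted p = 0.0015). Egr3, another immediate early factor, went the other way, with 4.76, 4.99 and 5.31 below background on the control arrays and values between 7.15 and 7.92 with Bcl2 (at least 2.68-fold higher, adjusted p = 0.0017). A second Egr3 probe gave 0.15 and did not pass. Klf2, a factor of lymphocyte quiescence, fell by 1.73 ± 0.30, Cd44, a hyaluronan receptor, by 1.51 ± 0.22 and Ccl9, a chemokine of myeloid cells, by 2.89 ± 0.42. Of 19 listed genes of cytotoxic and innate lymphocytes 5 were measured, and 2 of these rose (40%, beside 4.25% of all genes). The median of that list was 0.76, and -0.21 within slide 2. Nkg7, a granule protein of killer cells, rose by 2.17 ± 0.38 (adjusted p = 0.0053), and Tox, a nuclear protein needed for innate lymphoid cells, was at least 1.35-fold higher (adjusted p = 0.00017), a call lost with median scaling. The adult beta globins Hbb-bs and Hbb-bt, near-identical copies, rose by 2.28 ± 0.25 and 2.32 ± 0.27, while the other 6 measured erythroid and megakaryocyte genes did not pass and Klf1, an erythroid transcription factor, was not analysed here. All calls in this paragraph held without each array in turn. Without the dim array Fos was at least 4.97-fold lower and Egr3 at least 3.32-fold higher, and the log2 fold changes were -1.80 for Klf2, -1.27 for Cd44, -3.01 for Ccl9, 1.91 for Nkg7, 2.13 for Hbb-bs and 2.10 for Hbb-bt.

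No gene passed with all arrays in limma in the lists of ribosomal proteins (19 measured), ribosome biogenesis (21), the mitochondrial respiratory chain (23), caspases and the apoptosome (15), basophils and mast cells (7), stroma and endothelium (5) and Y-linked genes and Xist (4), the last of which differed among the control arrays as given above, whose medians lay between -0.50 and 0.12. With the protective BCL2 relatives these lists hold 100 genes, of which 11 were at an unadjusted p under 0.05, beside 2301 of all 9687 genes. The calls without control replicate 3 were 1 higher and 2 lower in the respiratory chain, 1 higher and 1 lower among caspases, and 1 lower each in ribosome biogenesis and in basophils and mast cells. In the interferon response 3 of 23 genes were lower (13%, beside 3.85% of all genes, and 0 with control replicate 2 alone), Psmb9 (-0.65), a subunit of the immunoproteasome, and the interferon-induced Usp18 (-1.40) and Rsad2 (-1.17), and all 3 calls were lost without Bcl2 control replicate 1 or 3. Itgb7, an integrin chain, and Cd63, a tetraspanin of granules and lysosomes, passed as lower in the adhesion list (-1.69 and -2.12), and both calls were lost without Bcl2 control replicate 3. Other Cd63 probes gave 0.08 and -0.80 and did not pass.

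The same contrast in Bcl11a-deficient cells, which shares no array with the one in control cells, gave 3828 called genes (39.5%), 2066 higher (21.3%) and 1762 lower (18.2%). Same-numbered control and Bcl11a-deficient arrays correlated at 0.991, 0.990 and 0.936, and Xist split both groups by the same numbers. Whether they share mice was not tested, so the contrasts may not be independent. Both contrasts also took the spread of each gene from the same fit over all the pro-B arrays. A gene with a small spread is thus more easily called in both, which can raise the shared counts that follow. By how much was not tested. A difference between the mice or cultures behind both names would enter both contrasts and cannot be told apart from Bcl2. Of the 412 genes higher with Bcl2 in control cells 342 (83%) were higher in the deficient cells too, which is 16.6% of the genes higher there. Of the 373 lower genes 279 (74.8%) were lower in the deficient cells, 15.8% of those lower there. A call in opposite directions was found for 11 and 9 genes. The 6 genes per direction with the smallest p-values over both contrasts were as follows. Dnali1, Pim2, Zmat3, 6530402F18Rik, Kynu and Arhgap24 were higher and Plk1, Pnp2, Mpo, Cops8, Obi1 and Lyz2 lower. Arhgap24, a GTPase-activating protein, read 8.12, 8.26 and 8.07 on the control arrays, against 10.07, 9.93 and 10.14 on the Bcl2 control arrays.

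The log2 fold change with Bcl2 differed between the cell types for 1051 genes (10.8%) by the interaction term, and 204 of the 785 genes called in control cells were among them. Division genes showed the widest gap. The median of the G2 and M phase list was -0.67 in control cells and -3.86 in deficient cells, and that of the S phase list -0.46 and -2.72. Cdca3, a trigger of mitotic entry, gave -0.65 in control cells and -4.49 in deficient cells, and Pbk -0.83 and -4.89. Myeloid lists were lower in both, with medians of -1.29 and -1.09 for neutrophils and monocytes, and Mpo was lower by at least 18.2-fold and at least 23.0-fold. Class II genes differed in part, and the difference passed for 2 of 6 measured. In control cells 5 of the 6 were called lower, beside 3.85% of all genes, and in deficient cells 0, beside 18.2%. The list of later B cell and class II genes had a median of -0.39 in control cells and 0.53 in deficient cells. In the deficient cells 7 genes of that list were higher and 0 lower, beside 21.3% and 18.2% of all genes. H2-Eb1 gave -3.22 in control cells and -0.83 in deficient cells (adjusted p of the difference 0.047) and H2-DMb1 -1.78 and -0.46 (0.028), while the difference for H2-Ab1 did not pass (-3.22 and -1.44, 0.19). For the p53 target genes the medians were 0.77 and 1.22. The deficient cells had been given OHT, so deletion and OHT cannot be told apart in these differences. Bcl11a itself rose with Bcl2 in control cells and fell in deficient cells (deficient minus control -2.68). Whether Bcl11a was lost on the deficient arrays without Bcl2 was not tested. Unequal loss of Bcl11a among the deficient arrays therefore cannot be told apart from a Bcl2 effect that differs.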

How the data were processed

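RNA from 12 cultures of mouse pro-B cells, 3 per group, was read on Illumina bead arrays with 45263 probes. The deposited scanner table holds a mean bead intensity per probe and array, not normalised between arrays per the file headers, and the deposited detection value, a fraction from 0 to 1, which was taken as 1 minus the detection p. The authors' series matrix holds a score per probe, which was found to be the intensity centred and scaled over the 15 arrays (largest difference 5e-06), and it was used as an alternative only. The steps by which the authors made these values are otherwise not given in the sources used here.

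Intensities of the 12 pro-B arrays were background-corrected with normexp from the detection p (offset 16), quantile normalised and put on the log2 scale with neqc of limma 3.58.1 in R 4.3.3. Probes with a detection p under 0.05 on 3 or more arrays were kept, 17719 in all, of which 14897 had 1 gene symbol in the platform annotation and 2822 none. The brightest kept probe stood for each of 9687 genes. A mean per group (4 groups) was fitted with lmFit and eBayes, and p-values were adjusted by Benjamini-Hochberg over all genes. The method was tested on simulated data. A bound ("at least") sets the brighter group's mean against the dimmer group's, each dim array raised to its lowest signal above background. With 3 arrays a group the smallest exact permutation p is 0.1, so no such test was run. Precision is limited by the few arrays.

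The genes named were Bcl2 and Bcl11a, the 12 highest and 12 lowest changes past the threshold without overlap, the 8 per direction without control replicate 3, members of 31 gene lists that passed or up to 4 with the smallest p, 6 per direction called in both Bcl2 contrasts and 4 per direction with the smallest interaction p. The comparison, the lists and the rules were chosen with earlier results of these data known, and 3 lists (macrophages and both histone lists) were added after the values were seen. Of 724 listed genes 485 were measured. The 3 DN3 arrays entered no comparison. They served only in an alternative normalisation and in the scaling of the scores.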

Additional observations from a re-analysis of the deposited data

Results flagged for a closer look

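The interaction term singled out genes whose Bcl2 contrast differed between Bcl11a-deficient and control cells, given here as the deficient minus the control log2 fold change. Bcl11a differed by -2.68, Rsph1, a protein of ciliary radial spokes, by -2.91 and Mrvi1 by -3.43. These 3 genes rose with Bcl2 in control cells (1.32, 0.73 and 1.16) and fell in deficient cells (-1.36, -2.18 and -2.27). The rise was larger in deficient cells for Arhgap24 (1.41) and Shisa5 (1.95). Sln and Clic6 gave fitted differences of 4.25 and 1.90, but both were below background on the control arrays, so these sizes are not exact. The fall was smaller in deficient cells for Lyz1 (2.32) and Lgals3 (3.00). It was larger there for Cdca3 (-3.84), H2ac12 (-2.97), Pbk (-4.06) and Kif4 (-3.41).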

How the results depend on the processing

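The 785 called genes became 167 with the 6 arrays fitted alone, 20 within slide 1, 4132 within slide 2, where 1 control array stands against 2, 1969 with control replicate 3 left out before normalisation, 2059 with array weights (control replicate 3 weighed 0.064) and 0 with the series matrix scores in limma, where 913 were at an unadjusted p under 0.05. Leaving out 1 array gave 379 to 1983. Without control replicate 3 the 1983 calls became 20 within slide 1, 0 with the scores (1384 unadjusted) and 911 to 1801 with a further array left out. The 3828 calls in deficient cells became 1822 with the scores. The 1051 interaction calls became 128 within slide 1, 3457 within slide 2, 1995 with control replicate 3 out before normalisation, 2382 with array weights, 0 with the scores (1064 unadjusted) and 655 to 2027 with 1 array left out. Of the genes on the 31 lists, macrophage and histone lists not included, 87 were called, and 28, 4, 220, 136, 147 and 0 in the same order of settings as for the 785, with 43 to 139 when 1 array was left out. Fewer arrays enter the fits within a slide and of the 6 arrays. The other causes were not tested. Slide as a block gave 1159 calls (616 higher and 543 lower).

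Within slide 2 the direction turned for Bcl2l2 (-0.42), Thy1 (0.10), Prf1 (-0.21), Cma1 (0.12), Tomm22 (0.66), Apoe (0.99), H1f10 (0.10), H2az1 (0.38) and H2az2 (0.43). It turned for H2az1 without control replicate 1 (0.011, against -0.44 without control replicate 3) and for H3c7 with the mean of its probes (0.049). Of 160 named genes that passed, 92 kept the call without each array in turn and 68 lost it at least once. None kept it in every alternative, since the scores ended each call.

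Replicate numbers were not used to pair the arrays in the main fit. The deviations of same-numbered control and Bcl2 control arrays correlated at 0.30, 0.00 and 0.32, and those of other pairs at -0.34 to 0.28. Same-numbered control and Bcl11a-deficient arrays correlated in log2 intensity at 0.991, 0.990 and 0.936, the highest value for each control array. Whether arrays of the same number share a source was not tested. A replicate block gave 830 calls (443 higher and 387 lower).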
